A study of Arabidopsis thaliana with 12 samples.

Results

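The genes described here are 98 Arabidopsis thaliana genes whose signal was lower in the flu mutant than in the wild type (WT) on every array compared, after darkness. They were chosen by the measured values themselves. On the deposited intensities, the lowest of 6 WT arrays had to be at least 1.2 times the highest of 6 flu arrays, and the WT mean at least 1.5 times the flu mean. Of 692 array features with exactly 1 gene, 108 met these thresholds (15.6%). A further 13 genes were left out by name, of which 10 had met the thresholds, so 98 remained. Over all 3439 features, named or not, 17.2% met the same thresholds, and with the thresholds mirrored (higher in flu) 54 of the 692 did (7.8%). These shares depend on the scaling, since every flu array had a lower median than every WT array on deposited values. On quantile normalised values 72 features met the thresholds for lower in flu, beside the genes left out by name. No mirrored count is given on such values. Since the deposited values made the choice, the size of each difference is a description here, with no test.

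The study compared flu plants with WT plants, 6 arrays each, both of ecotype Landsberg and both kept dark for 12 h before harvest. FLU is a regulator of chlorophyll synthesis, and the mutant is defective in this regulation. The labels name neither the tissue nor the flu allele, and do not say whether the 6 arrays of a genotype came from separate plants, so spreads between arrays may be technical. No feature was listed for FLU, and the mutation was therefore not checked on the arrays.

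FLU is known to hold back the early steps of tetrapyrrole synthesis in the plastid at night. Plants without it build up protochlorophyllide, the light-requiring precursor of chlorophyll, while they are dark. On return to light this pigment passes energy to oxygen, and the singlet oxygen formed is known to trigger a response in nuclear genes. The plants measured here were harvested from the dark.

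Array medians lay between 0.426 and 0.442 in flu and between 0.443 and 0.491 in WT, in the authors' linear intensity units, which run from 0 to 100. An intensity ranks samples for 1 feature, not genes against each other. Of 12 genes that mark green tissue, 7 were measured and none is among the 98. Their summed intensity was 44.8 to 50.3 in flu and 38.8 to 49.2 in WT, so the groups overlapped. Most of that sum came from LHB1B2 (mean 18.4 in flu, 17.5 in WT) and PSBW (20.4 in flu, 16.8 in WT). The means of LHB1B2, PSBW, PSBY and SBPASE were higher in flu, and those of CHLM, PSAN and PRK lower. PRK averaged 0.503 in flu and 0.916 in WT, which the sum does not show. None of the 7 root, 8 seed and 6 pollen markers looked for had a feature of its own. In such bulk samples fewer cells of a type and less RNA per cell cannot be told apart.

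The median of the members' means was 0.312 in flu and 0.728 in WT, against 0.434 in flu and 0.409 in WT for the other 594 features with 1 gene. The WT mean was below 1 for 67 members (68.4%), against 89.7% of the other features with 1 gene, and at 5 or more for 5 of the 98, against 8 of those 594. The ratio of WT mean to flu mean ran from 1.61 to 14.0 with a median of 2.34, and it was at least 2 for 81 members, at least 3 for 19 and at least 4 for 9. For 12 members the lowest WT array was at least 2 times the highest flu array. On normalised log2 values (a floor of 0.0236, log2, then quantile normalisation), flu minus WT ran from -2.71 to -0.61 with a median of -1.09. The median over all features was -0.04 on that scale. Members with a lower flu mean tended to have a larger ratio (Spearman rho of -0.67 across the 98 genes, a description, since the flu mean is part of the ratio). For 9 members at least 1 flu array was below the floor, and for 4 of these at least 1 flu array was listed at 0.

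**Figure D1:**
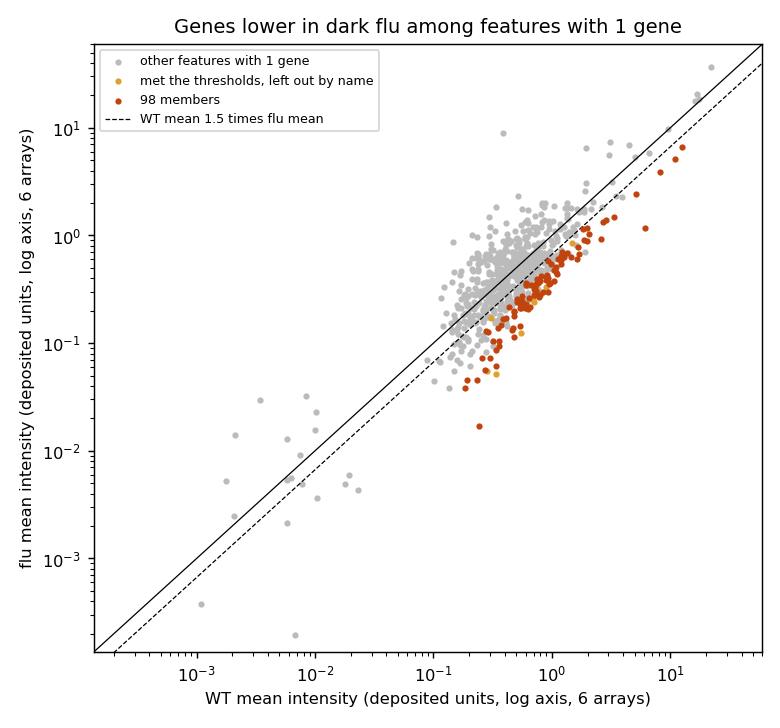
Mean intensity of each feature with 1 gene in flu (vertical) and WT (horizontal), both on log axes in deposited units, over 6 arrays each. The 20 features with a mean of 0 are not drawn, and AT3G09850 (71.6 in flu, 41.1 in WT) lies beyond the end of the axes. The 98 members lie below the dashed line where the WT mean is 1.5 times the flu mean, with ratios from 1.61 to 14.0.

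Across all 3439 features, 29.2% passed as lower in flu in the limma fit (Benjamini-Hochberg adjusted p below 0.05), and 26.6% of the 692 features with 1 gene did. All 98 members passed, which the way they were chosen makes nearly certain, so nothing is read from it. With array couples averaged and strips of feature numbers centred, both described further on, 60 of the 98 passed, against 14.2% of all features. The members were chosen on these same arrays, so nothing is read from that share either.

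Just inside the threshold stood AT3G54550, AT5G01960 and AT2G04360, whose lowest WT array was 1.204, 1.21 and 1.22 times the highest flu array. Just outside it stood AT1G25500, AT3G11150 and AT2G36480, at 1.198, 1.189 and 1.186 times. The WT means of AT1G25500 and AT3G11150 were 2.14 and 1.99 times their flu means.

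Of the 98 genes, 14 act in the chloroplast or are related to plastid proteins, as far as their roles are known. Roles were not counted for the other features with 1 gene. Whether this count, or any role count below, differs from the share over all features is therefore not known. For these 14, values were as follows. The ratio of WT mean to flu mean ran from 1.62 to 3.52 with a median of 2.14. AT5G55220, a chaperone of the trigger factor type, which in bacteria meets new proteins at the ribosome, averaged 0.0734 ± 0.0349 in flu and 0.259 ± 0.07503 in WT (SD, n = 6 each, as for all means below). AT4G26370, with the NusB domain of bacterial transcription antitermination factors, averaged 0.133 ± 0.05997 in flu and 0.459 ± 0.0868 in WT. AT2G04700 encodes the catalytic chain of ferredoxin-thioredoxin reductase, which passes electrons from photosynthesis to the thioredoxins that switch on stromal enzymes. It averaged 0.209 ± 0.0196 in flu and 0.6249 ± 0.159 in WT. AT2G46910, a fibrillin (lipid-associated proteins of plastids), averaged 0.598 ± 0.0902 in flu and 1.62 ± 0.199 in WT.

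CUTA, a small copper-binding protein of the chloroplast, was among the members of highest intensity. It had 4.08, 5.33 and 5.97 as the lowest, median and highest of 6 flu arrays, against 9.698, 10.4 and 12.5 in WT, and its lowest WT array was 1.62 times its highest flu array. DRT101, of the phosphoglucosamine mutase family and named for tolerance of DNA damage, had 0.906, 0.9699 and 1.28 in flu, against 1.73, 2.11 and 2.38 in WT. Both had WT means of about 2 times the flu mean (2.14 and 2.004).

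Several further plastid genes bear on gene expression and protein upkeep there. AT5G10910, a methyltransferase related to the bacterial enzyme for 16S ribosomal RNA, averaged 0.706 ± 0.0831 in flu and 1.22 ± 0.149 in WT. AT2G03390, which helps the plastid Clp protease to find its substrates, averaged 0.362 ± 0.0678 in flu and 0.769 ± 0.102 in WT. AT2G47390, a glutamyl peptidase of the chloroplast stroma, averaged 0.256 ± 0.0362 in flu and 0.503 ± 0.0921 in WT. AT2G23070, the chloroplast form of the casein kinase 2 alpha subunit, was dim, at 0.131 ± 0.03402 in flu and 0.2796 ± 0.0457 in WT. AT1G54500, a thylakoid rubredoxin needed for photosystem II to accumulate, averaged 0.597 ± 0.09805 in flu and 1.203 ± 0.195 in WT.

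The other plastid members were enzymes and a carrier. AT2G32040, a folate carrier of the plastid envelope, averaged 0.549 ± 0.05901 in flu and 1.19 ± 0.134 in WT. AT2G39000, a plastid acetyltransferase, averaged 0.166 ± 0.0422 in flu and 0.389 ± 0.0465 in WT. AT1G17160, a ribokinase, had the smallest ratio of the 14, at 1.14 ± 0.0544 in flu and 1.85 ± 0.1098 in WT, but its arrays lay close together and its lowest WT array was still 1.47 times its highest flu array.

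A group of 7 genes is of families known to act on polysaccharides and glycoproteins of the cell wall, with ratios from 1.99 to 2.84. AT3G57630, an arabinosyltransferase of extensins, had 0.265, 0.382 and 0.432 as lowest, median and highest flu array, against 0.984, 1.03 and 1.17 in WT. AT4G38040, of the exostosin family of glycosyltransferases, averaged 0.298 ± 0.116 in flu and 0.848 ± 0.223 in WT. CSLA01, a cellulose synthase-like protein of the A family, which includes mannan synthases, had 0.167, 0.214 and 0.266 in flu, against 0.374, 0.417 and 0.531 in WT.

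Of 4 measured GH9B genes, glycosyl hydrolases of the family of plant endoglucanases, GH9B16 and GH9B11 are members and GH9B12 and GH9B8 are not. GH9B12 averaged 0.152 in flu and 0.223 in WT, and GH9B8 averaged 0.0944 in flu and 0.317 in WT. GH9B16 had 0.246, 0.306 and 0.368 in flu, against 0.648, 0.689 and 0.788 in WT. GH9B11 had 0.222, 0.317 and 0.375 in flu, against 0.628, 0.6802 and 0.927 in WT. AT1G11820, a family 17 hydrolase (the beta-1,3-glucanases), averaged 0.128 ± 0.02995 in flu and 0.292 ± 0.116 in WT. AT2G15440, of the DUF579 family of xylan-related proteins, averaged 0.2301 ± 0.0402 in flu and 0.5401 ± 0.07903 in WT. The cell wall group had a median log2 change of -1.08, next to -1.09 over all 98 members.

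Enzymes outside these groups made up 14 members, with ratios from 1.93 to 14.0. AT5G38360, of the alpha/beta hydrolase fold, had the largest ratio of all members. Its flu arrays were listed at 0, 0.0158 and 0.0453 (lowest, median, highest), against 0.209, 0.243 and 0.268 in WT. A total of 4 of its 6 flu arrays lay below the floor, 2 of them listed at 0, so the ratio of 14.0 rests on flu values close to 0. LpxA, an acyltransferase that begins lipid A synthesis in bacteria and has plant homologues, had 0.813, 0.898 and 1.04 in flu, against 2.19, 2.45 and 3.05 in WT.

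Oxidoreductases formed most of this group. AT1G02020, of the nitroreductase family, averaged 0.301 ± 0.0585 in flu and 0.928 ± 0.0889 in WT. AT1G72640, with an NAD(P)-binding Rossmann fold, had the smallest spread between flu arrays relative to its mean of any member (coefficient of variation 1.93%), at 0.9097 ± 0.0176 in flu and 1.86 ± 0.09704 in WT. AT4G17260, lactate dehydrogenase, which regenerates NAD+ when oxygen is short, averaged 0.599 ± 0.0445 in flu and 1.16 ± 0.227 in WT. AT2G04540, the mitochondrial ketoacyl synthase of fatty acid synthesis, is not an oxidoreductase. It averaged 0.4401 ± 0.107 in flu and 1.101 ± 0.136 in WT.

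The remaining 8 enzymes had ratios between 2.23 and 2.78. AT4G20820, of the berberine bridge enzyme family, averaged 0.2099 ± 0.0298 in flu and 0.544 ± 0.0894 in WT. AT4G12270, of the copper amine oxidases, averaged 0.198 ± 0.03201 in flu and 0.475 ± 0.141 in WT. AT5G39410, related to saccharopine dehydrogenase, averaged 0.139 ± 0.04101 in flu and 0.353 ± 0.0919 in WT. AT5G48440, an FAD-dependent oxidoreductase, averaged 0.457 ± 0.115 in flu and 1.09 ± 0.261 in WT. The others were AT1G04420 of the aldo-keto reductases, AT1G15140 and AT4G20760, both oxidoreductases, and AT2G38500 of the 2-oxoglutarate-dependent oxygenases. Their flu means were 0.212 to 0.406 and their WT means 0.585 to 0.919.

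Genes that handle nucleic acids or regulate expression numbered 12, with ratios from 1.68 to 5.30. AT1G03810, with an OB fold that binds nucleic acids, had the largest ratio of the group. Its flu arrays had 1.01, 1.11 and 1.36 (lowest, median, highest), against 4.84, 5.84 and 8.296 in WT, and its lowest WT array was 3.57 times its highest flu array. UBA1A, an RNA-binding protein of the UBP1-associated family, had 0.181, 0.268 and 0.369 in flu, against 0.612, 0.754 and 0.979 in WT. AT1G78790 (MHF2), a histone-fold partner of the FANCM helicase in DNA repair, had 0.0218, 0.0706 and 0.1704 in flu, against 0.2905, 0.337 and 0.37997 in WT. The WT arrays of MHF2 lay close together, while its flu arrays spread widely.

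Transcription regulators of the group were AT4G00870, the bHLH14 factor of jasmonate signalling, and AT1G44830, an ERF factor. AT4G00870 averaged 1.38 ± 0.186 in flu and 2.89 ± 0.576 in WT, and AT1G44830 averaged 1.17 ± 0.0598 in flu and 1.96 ± 0.274 in WT. AT2G25640, with a transcription elongation factor S-II domain, averaged 0.264 ± 0.0992 in flu and 0.636 ± 0.128 in WT. AT4G14050, a pentatricopeptide repeat protein that edits mitochondrial RNA, averaged 0.677 ± 0.0823 in flu and 1.703 ± 0.552 in WT, and its WT arrays spread from 1.201 to 2.44.

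The other RNA and DNA genes were AT1G79220 of the mTERF family, AT2G30320, a pseudouridine synthase, AT3G08000, an RNA-recognition motif protein, AT4G30680, with the MA3 domain of translation initiation factors, and AT1G11800 of the endonuclease/exonuclease/phosphatase family. AT4G30680 had the largest ratio of these, at 0.137 ± 0.0267 in flu and 0.466 ± 0.06805 in WT. AT1G11800 averaged 0.359 ± 0.0876 in flu and 0.966 ± 0.12997 in WT. AT3G08000 averaged 0.775 ± 0.1705 in flu and 1.65 ± 0.286 in WT.

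Signalling, protein turnover and trafficking accounted for 13 members, with ratios from 1.67 to 5.08. AT1G24530, of the WD40 repeat family, was dim, at 0.00963, 0.0426 and 0.08898 on the lowest, median and highest flu array, against 0.177, 0.225 and 0.292 in WT, and 2 flu arrays lay below the floor. AT2G03140, with the CAAX protease domain of membrane peptidases, had 0.0639, 0.117 and 0.16001 in flu, against 0.355, 0.498 and 0.5805 in WT. RALFL32, a secreted peptide of the RALF family that receptor kinases perceive, had 0.221, 0.286 and 0.319 in flu, against 0.586, 0.7004 and 0.838 in WT. TPP2, tripeptidyl peptidase II, which trims peptides after the proteasome, had 0.158, 0.223 and 0.3498 in flu, against 0.494, 0.539 and 0.631 in WT.

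Kinases and phosphatases were represented by AT1G61590, a receptor-like cytoplasmic kinase at 0.215 ± 0.0493 in flu and 0.544 ± 0.0778 in WT, and by AT2G46850, a protein kinase at 0.427 ± 0.0677 in flu and 0.913 ± 0.157 in WT. AT4G33500, of the 2C protein phosphatases, averaged 0.356 ± 0.0741 in flu and 0.949 ± 0.148 in WT. Ubiquitin ligase families supplied AT3G44810 and AT3G06570, both F-box proteins, and AT5G01960, a RING/U-box protein. Their ratios were 2.11, 2.203 and 1.67. AT1G21660, a J-domain protein related to auxilin, which uncoats clathrin vesicles in animals, averaged 1.47 ± 0.122 in flu and 3.36 ± 0.532 in WT. AT4G40080, with the ENTH/ANTH domain of clathrin adaptors, and AT4G01810, of the Sec23/Sec24 coat proteins, had ratios of 1.93 and 1.92.

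A further 3 members encode secreted proteins of the cell surface. AT4G22490, of the lipid-transfer protein family, had 0.0184, 0.0639 and 0.101 in flu, against 0.253, 0.335 and 0.406 in WT. AT2G48130, also of that family, averaged 0.178 ± 0.04999 in flu and 0.481 ± 0.0486 in WT. AT4G31470, of the CAP family to which pathogenesis-related protein 1 belongs, had 2.22, 2.47 and 2.69 in flu, against 4.74, 5.31 and 5.41 in WT, with little spread in either genotype.

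No role is given here for the other 35 members, whose ratios ran from 1.61 to 4.89. AT1G62250 had the highest WT mean of all members, with 5.71, 6.25 and 7.81 in flu, against 10.3, 12.6 and 14.4 in WT. AT2G33180 had 2.66, 3.78 and 4.83 in flu, against 6.09, 7.77 and 10.9 in WT. AT1G70350 had 0.00198, 0.0505 and 0.102 in flu, against 0.237, 0.272 and 0.309 in WT. In each of these the groups were apart by the rule, by 1.32, 1.26 and 2.33 times from the highest flu to the lowest WT array.

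Several of the 35 were near the bottom of the scale in flu. AT3G47980 had 0, 0.0319 and 0.0818 in flu, against 0.129, 0.148 and 0.3798 in WT, where array 2 stood alone and the other arrays reached 0.162. AT1G05860 had 0, 0.0498 and 0.0801 in flu, against 0.137, 0.188 and 0.257 in WT. AT5G27860 had 0, 0.0574 and 0.188 in flu, against 0.232, 0.323 and 0.346 in WT. Each of these was listed at 0 on 1 flu array. Above them in level, AT2G13690, AT4G05030, AT4G37230, AT4G32340 and AT4G30740 had ratios of 3.84, 3.75, 3.39, 3.05 and 3.001.

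The others had ratios from 1.61 (AT4G24090) to 2.90 (AT4G37420). They were AT4G23110, AT2G48090, AT4G02040, AT2G18920, AT4G35980, AT5G02710, AT4G05070, AT4G20690, AT2G04360, AT1G13990, AT3G09050, AT1G70180, AT4G24910, AT4G33480, AT5G03900, AT4G27390, AT3G54550, AT4G16410, AT1G28150, AT2G14660, AT5G36470 and AT4G19430.

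**Figure D2:**
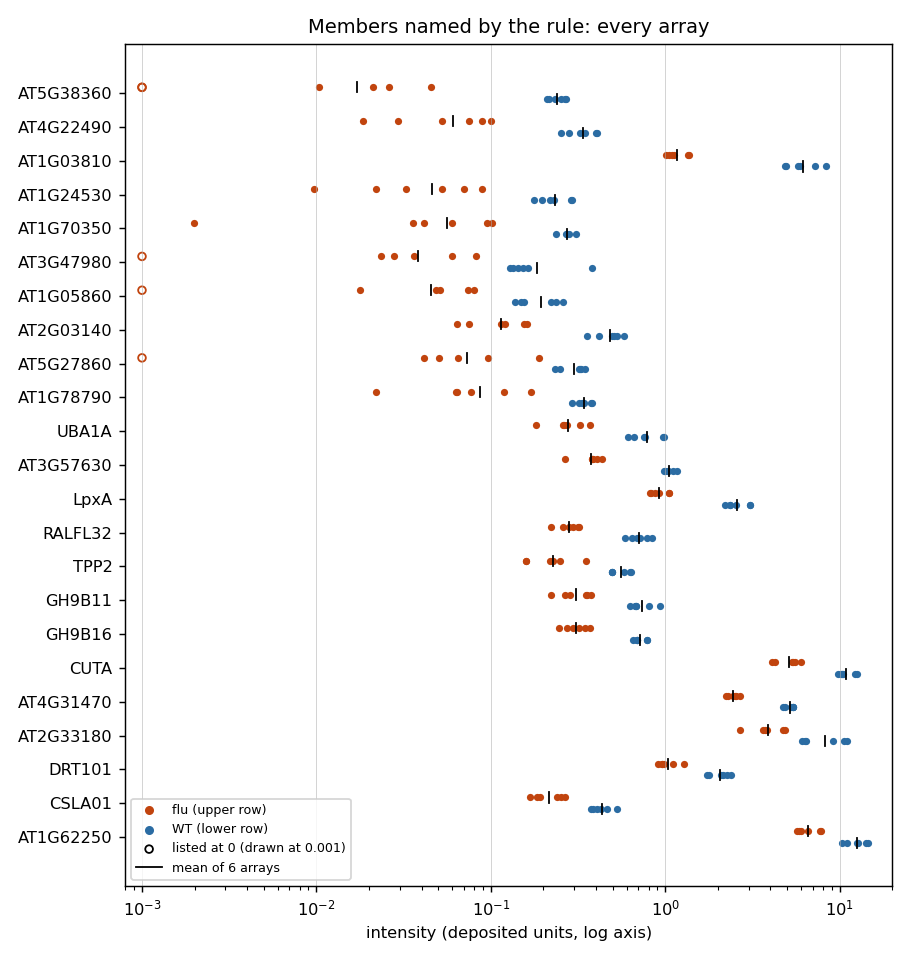
Deposited intensity on every array (log axis) for the 23 members chosen by size, level or gene symbol; filled points are arrays, black ticks means of 6 arrays, and open circles arrays listed at 0. In each gene the flu arrays (upper row) end below the WT arrays (lower row), from 1.24 times in AT5G27860 to 4.61 times in AT5G38360.

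The members differed in how evenly the arrays carried the difference. Within a genotype, arrays 1 and 2, 3 and 4, and 5 and 6 resembled each other over all features (Spearman rho of 0.940 to 0.967 in flu and 0.909 to 0.956 in WT), and arrays of different couples less so (0.893 to 0.942 in flu and 0.780 to 0.871 in WT). The labels do not name such couples. Taken by couple, the median ratio of WT to flu over the 98 genes was 2.48 for arrays 1 and 2, 2.24 for arrays 3 and 4 and 2.36 for arrays 5 and 6, and the ratio was at its largest in arrays 1 and 2 for 51 members. A ratio of at least 2 was seen in all 3 couples for 49 members.

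The most even member was AT1G72640, with ratios of 2.05, 2.04 and 2.04 in the 3 couples. The widest range of values was that of AT4G22490, with 3.25 in arrays 1 and 2, 15.4 in arrays 3 and 4 and 4.89 in arrays 5 and 6. AT4G38040 had 1.52, 2.88 and 5.597, and AT1G78790 had 8.19, 2.66 and 3.67. The 15.4 of AT4G22490 and the 8.19 of AT1G78790 each rest on a flu array below the floor (array 4 at 0.0184 and array 2 at 0.0218), so their sizes are uncertain. For 12 members the largest of the 3 ratios was over 2 times the smallest. No single array left out moved any member's ratio of means by more than 1.49 times. That was AT5G38360, whose ratio was 20.8 without flu array 4.

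In flu, arrays 1 and 2 held the highest couple mean for 43 members, arrays 3 and 4 for 24 and arrays 5 and 6 for 31. In WT, these couples held it for 56, 9 and 33 members. WT arrays 3 and 4 were the lowest WT couple for 48 members. The median intensity of the 98 genes was 0.317, 0.308 and 0.301 in the 3 flu couples and 0.814, 0.671 and 0.709 in the 3 WT couples, so WT varied more than flu between couples.

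**Figure D3:**
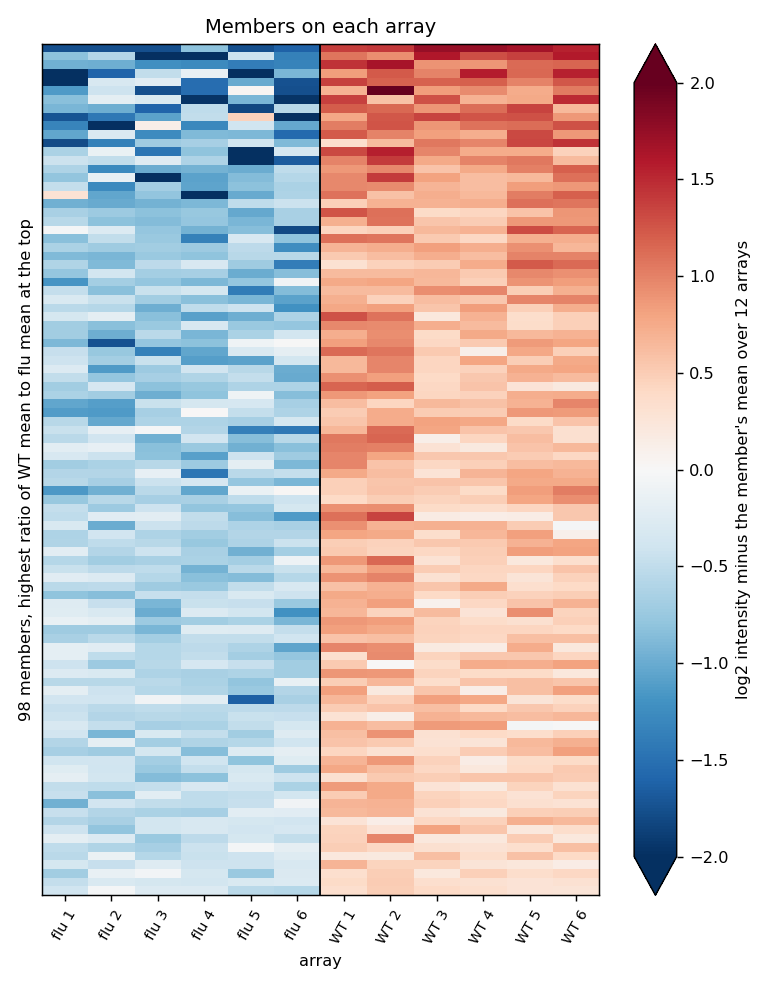
Each row is 1 of the 98 members and each column 1 array; colour is the log2 deposited intensity (values below 0.0236 raised to it) minus the member's mean over 12 arrays. Flu arrays are blue and WT arrays red nearly throughout, and WT arrays 1 and 2 are the deepest red for many rows.

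The number of a feature in the deposited table moved with these differences. Feature numbers were divided into 48 strips, each made of runs of 6 consecutive numbers repeated at a fixed interval, a pattern taken from an earlier look at these data. Whether such a strip is a place on the array, a source plate or something else is unknown. In each strip the mean log2 change (flu minus WT) was taken over the features that are not members. It was below 0 in 24 strips, which held 79 of the 98 members (80.6%) but only 41.6% of all features with 1 gene. The members lay in 32 strips, with up to 7 in a strip. That strip, number 45, held AT2G04700, AT4G33500, GH9B16, AT4G38040, AT1G02020, AT4G20820 and AT2G38500, and its other features averaged -0.09. The part of the strips in the differences was not tested beyond the centred values that follow.

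With each strip's mean deviation subtracted from every array, all 98 members still had a negative log2 change, from -3.21 to -0.12 with a median of -0.79, against a median of -0.05 over all features. Unlike the strip means above, the mean subtracted took in every feature of the strip, members too. Part of the members' own difference was thus subtracted with it. A change of -1 or lower was seen in 63 members before and 31 after. Of the 98, 34 still met the thresholds of the choice. Centring made the difference smaller for the 79 members in strips with a negative mean and larger for the other 19. AT5G38360 moved to -3.21, AT5G27860 to -2.13, AT1G05860 to -1.96 and AT5G55220 to -1.70, all in strips whose other features averaged above 0. AT1G03810 moved from -2.34 before centring to -1.80, and AT4G22490 from -2.15 to -1.48. AT4G19430, at -0.12, CSLA01, at -0.19, and AT2G30320, at -0.23, kept the least.

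**Figure D4:**
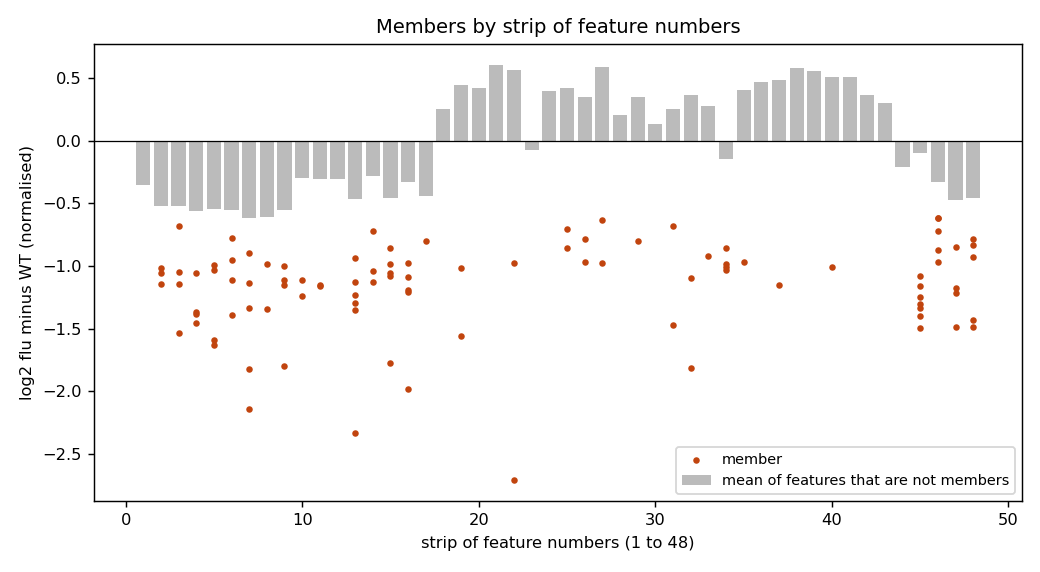
Log2 flu minus WT (normalised values, 6 arrays each) of the 98 members (points) by strip of feature numbers, with the mean of the other features of the strip as bars. Strips with bars below 0 hold 79 of the members, and all points lie at -0.61 or lower.

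The 98 genes were unevenly spread over the chromosomes. On chromosome 4, 35 of 120 features with 1 gene were members (29.2%), and on chromosome 2, 24 of 124 (19.4%). The shares were 12.1% on chromosome 1 (21 of 173), 7.69% on chromosome 5 (11 of 143) and 5.38% on chromosome 3 (7 of 130). Genes of a chromosome also shared strips. Of the features with 1 gene, 79.2% on chromosome 4 and 79.0% on chromosome 2 lay in strips with a negative mean, against 34.7% on chromosome 1, 19.2% on chromosome 3 and 6.29% on chromosome 5. In strips with a mean of 0 or above, 1 of 25 features of chromosome 4 was a member (4%), and 9 of 134 of chromosome 5 (6.72%). In strips with a negative mean, the share was 35.8% on chromosome 4, 28.3% on chromosome 1 and 23.5% on chromosome 2, with 12% of 25 features on chromosome 3 and 22.2% of 9 on chromosome 5.

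With strips centred, the share of features with 1 gene that met the thresholds was 9.17% on chromosome 4 and 4.03% on chromosome 2, against 7.51% on chromosome 1, 11.5% on chromosome 3 and 11.2% on chromosome 5. On deposited values, and with the genes left out by name included, these shares had been 30% on chromosome 4, 20.2% on chromosome 2, 14.5% on chromosome 1, 8.46% on chromosome 3 and 7.69% on chromosome 5. Chromosome 4 was thus the highest on deposited values and the third of the 5 with strips centred.

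**Figure D5:**
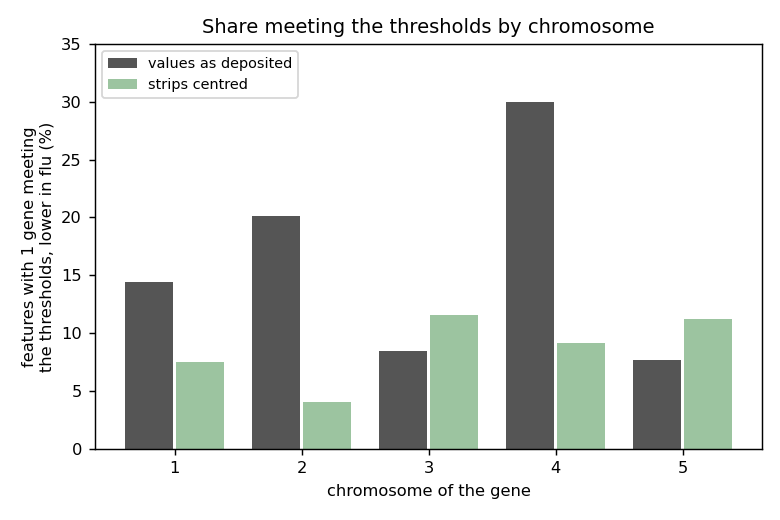
Percent of features with 1 gene on each chromosome that met the thresholds for lower signal in flu, on deposited values (dark bars) and after the strip means were subtracted (light bars). Chromosome 4 stands at 30% on deposited values and at 9.17% with strips centred.

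Some members are close neighbours in the genome. Of 196 pairs of measured genes at most 10 protein-coding genes apart, 11 (5.61%) had both genes among the members, and these 11 pairs held 18 genes. Counted as single genes, 98 of the 692 features with 1 gene were members. On chromosome 4, where most of the 11 pairs lie, 35 of 120 were (29.2%). AT4G20690, AT4G20760, AT4G20820 and AT4G20850 (TPP2) form a run, in strips 16, 34, 45 and 13. The other pairs were AT1G11800 and AT1G11820, AT2G46850 and AT2G46910, AT2G48090 and AT2G48130, AT4G05030 and AT4G05070, AT4G14010 (RALFL32) and AT4G14050, AT4G30680 and AT4G30740, and AT4G33480 and AT4G33500. In each of the 11 pairs the features lay in different strips. Whether neighbours differed together more than other genes do was not tested. The median length of the gene on the chromosome was 2064 bases for the members and 2194 bases for the other features with 1 gene.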

How the data were processed

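The deposited table gives 1 linear intensity per feature and array, as the authors scaled it. For the scanner, background step and scaling, the record reads: not given in the sources used here. A platform table listed 1562 of 3439 features: 692 with 1 gene, 870 with several (left unnamed), and 1877 more were unlisted. Symbols came from RefSeq (assembly TAIR10.1), which matched 690 of the 692. Thresholds, means and SDs use deposited intensities. For log2 values, a floor was set at the 1st percentile of positive intensities (0.0236), followed by log2 and quantile normalisation. The fit over all features used R 4.3.3 and its package limma 3.58.1 (lmFit, then eBayes, two-sided, p adjusted by Benjamini-Hochberg, threshold 0.05), flu minus WT, tested on simulated data. The values simulated for the fit were independent between arrays, without array couples, paired replicates or strips, so they say nothing about the effect of those. The fit serves as background only.

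The labels number the arrays but do not say that a flu and a WT array of equal number belong together. Such a pairing was inferred from the values. Where the numbers were equal, the correlation (r) of deviations between a flu and a WT array lay between 0.368 and 0.539. With unequal numbers, the highest r per number lay between 0.0279 and 0.261. The main fit did not use the pairing, which entered only in settings with the replicate block. The number of arrays limits the precision. Members, lists, role groups, strips and couples were chosen with earlier results of these data known. The naming rule took the 10 largest ratios of means, the 5 largest gaps between groups, the 5 highest WT means, members with a symbol, and the 2 largest ratios of each keyword class, and gave 23 members. The RefSeq table used holds symbols and synonyms only, so 93 members fell outside every keyword class, roles are background knowledge, and promoter motifs were not analysed here. Alternatives covered scaling, the floor, a filter on low values, the replicate block, couples, strips and each array left out.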

Additional observations from a re-analysis of the deposited data

Results flagged for a closer look

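Within a genotype, 1 array stood far from the other 5 in 15 of 196 groups tested (98 members in 2 genotypes), by Dixon's ratio of gap to range. Chance flags about 5% of groups, here 9.8, if the 6 arrays are independent, which the likeness within array couples goes against, and the members share the same arrays. In flu, the array was higher than the others for AT2G48130 (0.273 in array 6, others 0.127 to 0.179), AT4G20820 (0.269 in array 4, others 0.189 to 0.207), AT2G04540 (0.647 in array 5, others 0.350 to 0.444), AT1G04420 (0.465 in array 2, others 0.374 to 0.404), AT3G06570 (0.444 in array 6, others 0.295 to 0.321) and AT4G24910 (0.493 in array 6, others 0.315 to 0.375). It was lower for AT3G57630 (0.265 in array 6, others 0.378 to 0.432), AT3G09050 (0.363 in array 4, others 0.478 to 0.515) and AT2G14660 (0.502 in array 2, others 0.650 to 0.7005).

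In WT, the array was higher than the others for AT3G47980 (0.380 in array 2, others 0.129 to 0.162), AT2G15440 (0.688 in array 1, others 0.465 to 0.547), AT1G70180 (0.662 in array 2, others 0.437 to 0.501) and AT5G36470 (1.42 in array 2, others 0.829 to 1.02). It was lower for AT2G39000 (0.301 in array 3, others 0.383 to 0.431) and AT4G16410 (0.596 in array 1, others 0.671 to 0.699). Without WT array 2 the ratio of WT mean to flu mean of AT3G47980 was 3.78, against 4.81 with it.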

How the results depend on the processing

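Under each of the 3 settings with strips centred, the log2 change of 74 of the 98 members moved by more than 1 SD between arrays, and that of 24 by less. It moved so for 4 members on values as deposited and for 1 with arrays divided by their median. None reversed, but the members were chosen for groups that do not overlap, so leaving out an array could hardly reverse one. The replicate block, averaging couples and the filter on low values leave each member's log2 change as it was, so these settings say nothing about its stability. The setting of strips centred with the replicate block was chosen after seeing the data. The members' median log2 change of -1.09 became -0.79 with strips centred, with couples averaged and strips centred, and with strips centred and the replicate block, and -1.24 on values as deposited, where the median of all features was -0.20. The thresholds of the choice were met, beside the genes left out by name, by 98 features on deposited values, 152 with couples averaged, 54 with strips centred (34 members), 97 with couples averaged and strips centred (56 members), 72 on quantile normalised values and 75 with arrays divided by their median. Leaving out 1 array gave 99 to 108. Averaging couples or leaving out an array can only widen the gap between the groups, so that members are kept under these settings supports nothing. The count of features lower in flu was 1005 and that of features higher in flu 791. With couples averaged and strips centred these were 487 and 469, and with couples averaged alone they were 693 and 500. With the replicate block they were 1090 and 876, with the members' median at -1.09. Of the passing features 44.0% were higher, against 34.0% on values as deposited. The cause of these changes was not tested. Averaging couples also leaves fewer values in each genotype. Signal over background was not analysed here.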
